A study of Mus musculus with 6 samples.

Results

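Myofibroblasts are contractile, matrix-secreting fibroblasts that appear in wounds, and 10 genes that mark them were followed here across single nuclei of brain lesions. The genes were Postn, Cthrc1, Acta2, Tagln, Lrrc15, Fn1, Fap, Nox4, Adam12 and Itga11. They were taken as a list of names, chosen with earlier results of these data known, and are 10 of the 32285 genes counted in the series. All 10 had at least 1 unique molecular identifier (UMI, a tag that marks 1 captured RNA molecule) in fibroblast nuclei of every library.

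Single-nucleus RNA-seq was performed on photothrombotic (PT) lesions, a focal ischaemic injury of the mouse cortex, at 7 and 21 days post injury (dpi). Ctrl lesions came from wild-type mice. ADWA11 lesions came from wild-type mice given ADWA11, an antibody that blocks the integrin αvβ8, which releases TGFβ from its latent form. The cKO lesions came from Col1a2(creER); Tgfbr2(flox) mice, in which tamoxifen deletes TGFβ receptor II in cells that express the collagen gene Col1a2 (the driver is active in any cell that expresses Col1a2, bone-forming cells included). The labels name no treatment for Ctrl and cKO. Each of the 6 groups was 1 library that pooled lesions of adult male and female mice. No group was replicated as a library, so no test was made, and bracketed 95% intervals cover counting error only (exact Poisson for levels, exact conditional binomial for ratios, Clopper-Pearson for shares). Nuclei were assigned to the female or the male by Xist and Y-linked UMIs, which gave 1 value per sex within each library. These values share a library and its preparation, and the 2 sexes are not replicates.

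TGFβ, bound by a receptor pair that includes TGFβ receptor II, is the best known inducer of the myofibroblast state through SMAD transcription factors. Contraction rests on smooth muscle actin (Acta2) and on actin-binding proteins such as transgelin (Tagln), whose genes are classical targets of serum response factor (SRF) and its cofactors of the myocardin family. Acta2 and Tagln are also defining genes of vascular smooth muscle, and Postn, Fap and Cthrc1 are made by bone-forming cells, so mural and osteoblast-like nuclei were described beside fibroblasts.

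Promoter windows from 250 bases before to 50 bases after the RefSeq start were at hand for 5 of the 10 genes, Acta2, Postn, Nox4, Itga11 and Lrrc15. Acta2 is shown as the contractile gene, and Postn (the window of 2 that holds the start of the annotated gene) and Nox4 as the matrix gene and the oxidase gene that the comparisons below turn on (RefSeq sequence, GRCm38.p6, 5′ to 3′ on the gene's strand). Capitals mark CArG boxes (the SRF site, CC, 6 A or T, then GG, with up to 1 mismatch), the SMAD-type motif CAGAC on either strand, or the TATA motif TATAAA, searched on both strands as well. The Acta2 window is chr19:34255324-34255623 (minus strand), the Postn window chr3:54360857-54361156 (plus strand) and the Nox4 window chr7:87246399-87246698 (plus strand). The RefSeq starts of Acta2 and Nox4 lie inside the genes as GENCODE draws them, so the Nox4 window falls wholly and the Acta2 window mostly within the gene bounds given below.
Acta2: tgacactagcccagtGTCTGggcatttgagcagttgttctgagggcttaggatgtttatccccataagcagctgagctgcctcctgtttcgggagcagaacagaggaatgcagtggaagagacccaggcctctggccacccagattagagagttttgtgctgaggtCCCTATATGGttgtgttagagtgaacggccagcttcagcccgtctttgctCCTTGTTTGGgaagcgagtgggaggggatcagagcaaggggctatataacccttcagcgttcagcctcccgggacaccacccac
Postn: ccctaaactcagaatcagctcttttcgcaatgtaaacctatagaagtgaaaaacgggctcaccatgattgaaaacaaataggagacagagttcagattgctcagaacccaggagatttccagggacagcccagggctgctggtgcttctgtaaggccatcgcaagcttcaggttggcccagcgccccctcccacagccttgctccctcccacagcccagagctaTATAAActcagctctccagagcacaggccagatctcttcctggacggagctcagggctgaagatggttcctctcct
Nox4: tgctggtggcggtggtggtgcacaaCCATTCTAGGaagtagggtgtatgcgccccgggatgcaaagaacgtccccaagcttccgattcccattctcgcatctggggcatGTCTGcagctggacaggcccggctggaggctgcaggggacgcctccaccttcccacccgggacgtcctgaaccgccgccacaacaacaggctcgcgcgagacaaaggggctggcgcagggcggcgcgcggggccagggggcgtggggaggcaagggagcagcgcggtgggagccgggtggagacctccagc
The Acta2 window held 2 CArG matches, at 84 and 34 bases before the start, and 1 CAGAC on the opposite strand. Of 32851 RefSeq windows of this length, 21.1% held at least 1 such CArG match, 2.87% held at least 2 and 49.6% held a CAGAC on either strand. The Nox4 window held 1 CArG match and 1 CAGAC on the opposite strand. In the Postn window TATAAA stood 26 bases before the start, a motif found on either strand in 13.6% of windows. These are matches of letters, not measured binding.

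The libraries held 64798965 to 140310354 UMIs, with medians of 4601.5 to 8222.5 UMIs per barcode, and 61917 of 67360 barcodes were kept as nuclei. Fibroblast-like nuclei, called fibroblasts below and named from marker genes outside the 10, numbered 2154 in 7 dpi Ctrl, 2675 in 7 dpi ADWA11 and 374 in 7 dpi cKO, and 6082, 3052 and 966 in the same groups at 21 dpi. The markers that gave the name are described here and are no test of it. Col1a2 was detected in 95.7% of fibroblast nuclei and 42.1% of other nuclei, and Pdgfra in 50.5% and 7.49%. The cKO libraries stood apart, since they held 5915 neuron nuclei at 7 dpi and 773 at 21 dpi, whereas the other 4 libraries held 11 to 200. Summed neuron markers within fibroblast nuclei stood at 220 CPM (UMIs of a gene or list per 1000000 UMIs of the same nuclei) in 7 dpi cKO and 78.7 CPM in 21 dpi cKO, against 5.78 to 11.8 CPM elsewhere, and all 8 fibroblast markers together stood at 5052 and 2013 CPM against 5762 to 9604 CPM (4 of these 8, Col1a1, Col1a2, Col3a1 and Col5a2, also belong to the scar matrix list below). The part of these differences in the results below was not tested. For Tgfbr2, fibroblasts of 7 dpi held 318 CPM in Ctrl, 245 in ADWA11 and 239 in cKO, and those of 21 dpi held 225, 194 and 185 CPM. The 3′ tags counted here need not lie in the floxed exons, so this level does not check the deletion.

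In the GENCODE annotation of GRCm38 all 10 are protein-coding genes. Acta2 lies at chr19:34241090-34255590, Tagln at chr9:45929619-45936058 and Lrrc15 at chr16:30269302-30283256, all on the minus strand. Fn1 (chr1:71585520-71653200), Fap (chr2:62500943-62574075) and Adam12 (chr7:133883199-134232146) are on the minus strand too. Postn (chr3:54361109-54391037), Nox4 (chr7:87246096-87398710), Itga11 (chr9:62677826-62783982) and Cthrc1 (chr15:39076932-39087121) are on the plus strand.

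Fibroblasts carried most UMIs of 8 of the 10 genes across all classes and libraries. Adam12, a membrane metalloprotease-disintegrin, had 89.2% of its UMIs in fibroblast nuclei, Nox4, a hydrogen peroxide-producing NADPH oxidase, 78.1%, Itga11, the collagen-binding integrin α11, 76.7% and Fn1, fibronectin, 74.3%. Acta2 UMIs were divided between mural nuclei with 40.4% and fibroblasts with 35.0%, although mural nuclei numbered only 36 to 136 per library. Tagln UMIs lay to 49.8% in fibroblasts and to 15.9% in mural nuclei. Osteoblast-like nuclei held 26.6% of the UMIs of Fap, a membrane serine protease of activated fibroblasts, 19.1% of those of the surface protein gene Lrrc15 and 13.2% of those of Postn, the matricellular protein periostin. Neurons, nearly all from the cKO libraries, held 17.2% of the UMIs of Cthrc1, a secreted collagen-triple-helix protein, and 10.5% of those of Itga11, and myeloid nuclei held 13% of Fn1. The stacked bars of UMIs by class show this division.

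**Figure D1:**
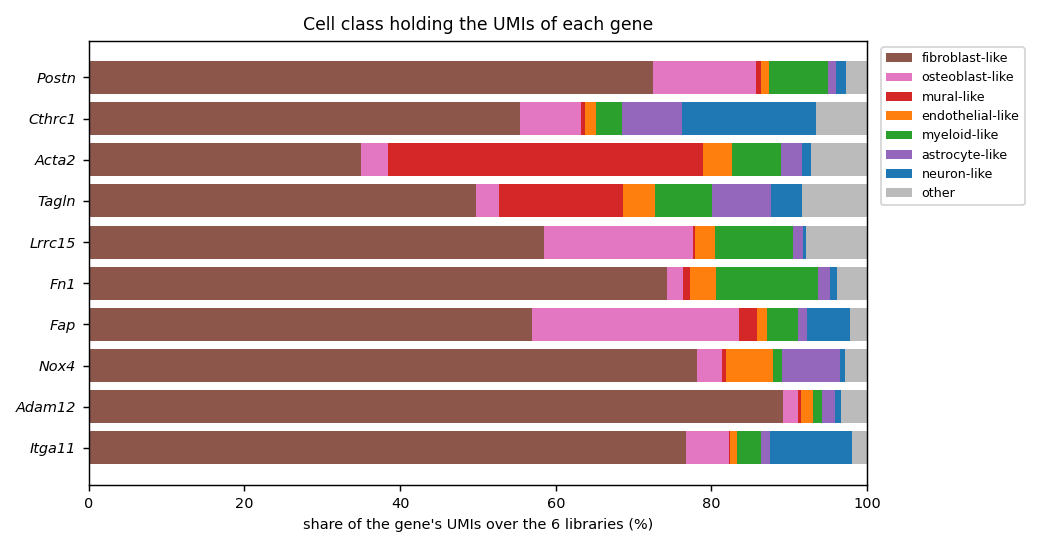
Share of each gene's UMIs (x axis, percent of its UMIs over all 6 libraries) by class of nuclei (colours), 1 bar per gene. Acta2 is the gene with the largest mural segment (40.4%), and Adam12 the one with the largest fibroblast segment (89.2%).

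In fibroblasts, Postn and Fn1 were highest in 7 dpi Ctrl and lower in each later or perturbed library. Postn stood at 358 CPM [349, 368] in 7 dpi Ctrl, 170 in ADWA11 and 155 in cKO, and at 74.0, 41.2 and 48.1 CPM at 21 dpi. Fn1 was at 1343 CPM [1326, 1361], 951 and 750 at 7 dpi in the same order, and at 658, 429 and 357 CPM at 21 dpi. For both genes the female and male values of 7 dpi Ctrl (374 and 343 CPM for Postn, 1511 and 1170 CPM for Fn1) lay above every other value by sex. The intervals of Postn at 21 dpi in ADWA11 [38.6, 43.9] and cKO [43.4, 53.1] overlapped, so the order of these neighbours was not set. Cthrc1 differed from both, with 74.7 CPM in Ctrl, 98.9 in ADWA11 and 72.5 in cKO at 7 dpi, then 16.3, 11.7 and 12.1 CPM. Its highest library was therefore 7 dpi ADWA11 [95.1, 103], and the 7 dpi Ctrl [70.6, 78.9] and cKO [61.8, 84.6] intervals overlapped.

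The contractile pair was sparse outside mural nuclei. Acta2 had 15.9 CPM [14.1, 17.9] in Ctrl, 11.3 in ADWA11 and 8.56 [5.15, 13.4] in cKO fibroblasts at 7 dpi, and 2.87, 1.53 and 1.60 CPM at 21 dpi. With each nucleus thinned to 2000 UMIs, Acta2 was detected in 1.90% of 7 dpi Ctrl fibroblasts and 0.455% of myeloid nuclei of that library, and in 0.451% and 0.152% at 21 dpi (unthinned, 5.01% and 1.12% of fibroblasts). Tagln stood at 11.1 CPM [9.59, 12.8], 8.05 and 7.66 [4.46, 12.3] at 7 dpi and at 3.85, 2.51 and 4.44 [3.11, 6.15] CPM at 21 dpi. For both genes the cKO values rested on 13 to 36 UMIs per library, and the 7 dpi cKO intervals overlapped those of ADWA11. Mural markers were among those that named the classes, so their level in fibroblast nuclei with Acta2 is a description. Summed, they (of which Myh11 and Des also belong to the contractile list below) were at 164 CPM in the 108 fibroblast nuclei with Acta2 of 7 dpi Ctrl, 108 CPM in those without, and 5299 CPM in mural nuclei. At 21 dpi the same values were 356, 77.1 and 5586 CPM in Ctrl and 450, 89.4 and 4759 CPM in cKO, and 7 dpi ADWA11 had 210, 88.1 and 4770 CPM. The nuclei with Acta2 were thus higher in mural markers than those without in each of these libraries, and 10 fibroblast nuclei of 21 dpi Ctrl with both Acta2 and Tagln held 806 CPM. Summed fibroblast markers were also higher with Acta2 than without, at 12852 against 9385 CPM in 7 dpi Ctrl and 9712 against 7250 in ADWA11. At 21 dpi they stood at 10048 against 7578 CPM in Ctrl and at 3840 against 1992 CPM in cKO.

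Fap stood at 277 CPM in Ctrl, 194 in ADWA11 and 116 [102, 131] in cKO at 7 dpi, and at 209, 89.3 and 93.0 CPM at 21 dpi. Lrrc15 rested on the fewest UMIs, with 6.63 CPM [5.46, 7.97], 4.14 and 2.25 [0.731, 5.26] at 7 dpi and 1.18, 0.382 and 0.123 [0.00312, 0.687] CPM at 21 dpi, the last from 1 UMI. In both genes Ctrl was the highest library at its time point. Nox4 was at 302 CPM, 134 and 82.0 at 7 dpi, and at 348, 196 and 63.5 CPM at 21 dpi, and Ctrl exceeded both perturbed libraries at each time. Itga11 stood at 208, 118 and 69.4 CPM at 7 dpi and 183, 171 and 43.3 CPM at 21 dpi. Its 21 dpi Ctrl [178, 187] and ADWA11 [165, 176] values lay close together, and by sex they overlapped (169 and 204 against 198 and 157 CPM). Adam12 had another order, with 2321, 3485 and 3145 CPM at 7 dpi and 1500, 1919 and 3891 CPM [3848, 3934] at 21 dpi. It was the only one of the 10 genes whose highest library was a cKO library.

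Shares of fibroblasts with a UMI are given at 2000 UMIs per nucleus. For Postn and Nox4 they stand beside the share in myeloid nuclei of the same libraries, which should lack most of these genes. Postn was detected in 36.5% of Ctrl, 21.3% of ADWA11 and 15.1% of cKO fibroblasts at 7 dpi, and in 9.18%, 6.29% and 6.17% at 21 dpi, against 0.272% to 2.86% of myeloid nuclei. Nox4 was detected in 31.5%, 17.9% and 11.2% at 7 dpi and in 32.4%, 21.8% and 8.07% at 21 dpi, against 0.054% to 1.44% of myeloid nuclei. Cthrc1 was detected in 12.1%, 16.2% and 10.6% at 7 dpi, and at 21 dpi in at most 2.84% of fibroblasts of a library. The 7 dpi ADWA11 library again had the highest share of Cthrc1. Adam12 was detected most widely, in 82.8% of Ctrl, 94.6% of ADWA11 and 91.5% of cKO fibroblasts at 7 dpi, and 21 dpi nuclei had it in 73.7%, 83.1% and 95% of cases.

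**Figure D2:**
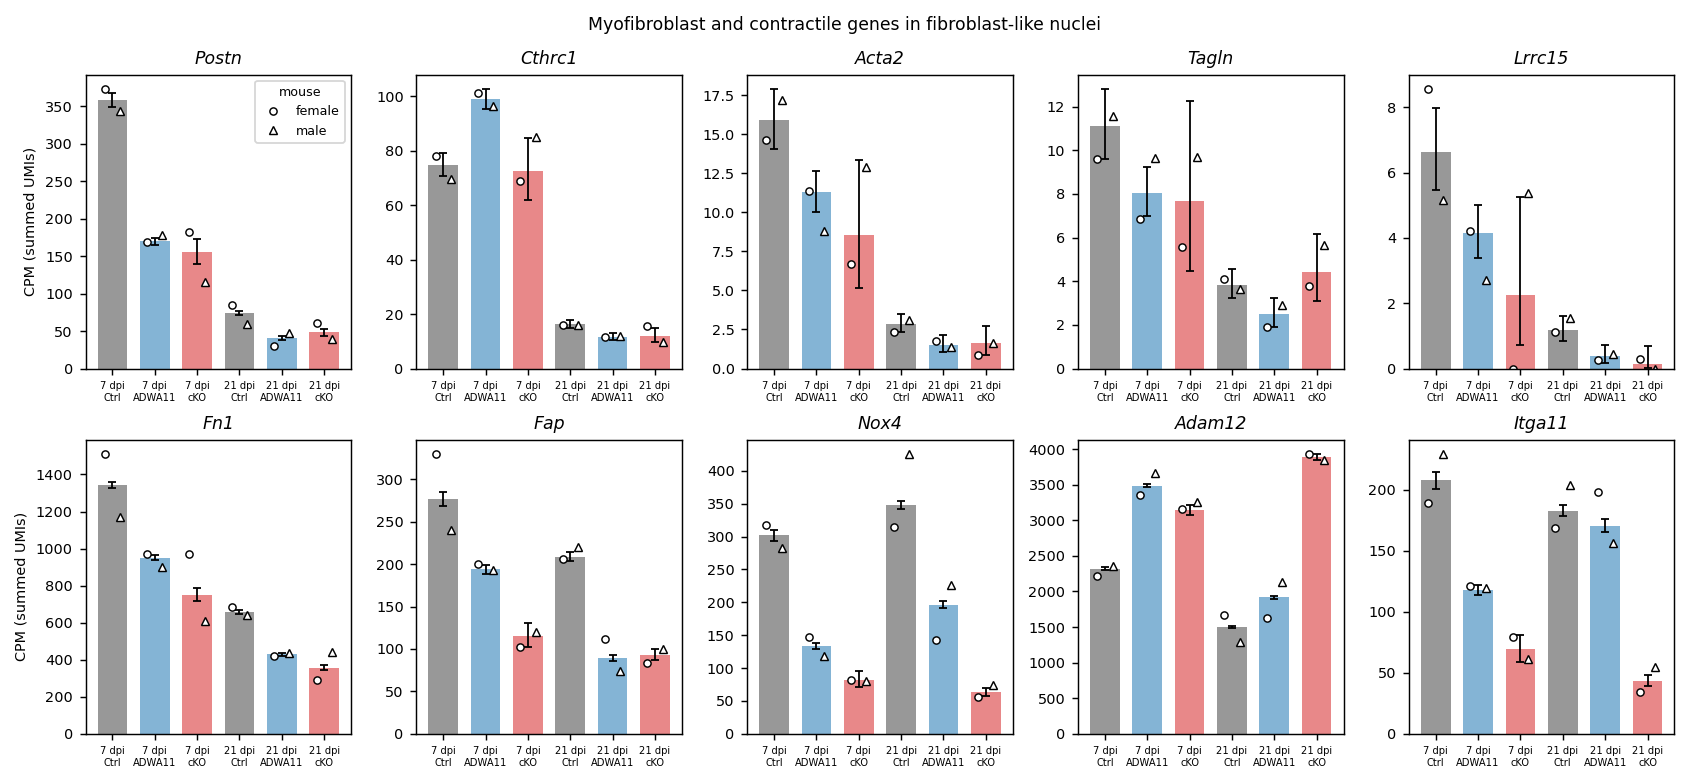
Level of each gene in fibroblast nuclei (y axis, CPM, from 0, a scale of its own per gene) in the 6 libraries (x axis, 1 column each), with error bars for 95% exact Poisson intervals and open circles and triangles for the female and the male of a library. Postn and Fn1 are highest in 7 dpi Ctrl, and Adam12 is highest in 21 dpi cKO.

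Whether these genes differ after deletion of the receptor was addressed by comparing cKO with Ctrl at each time, as the log2 ratio of CPM. At 7 dpi, 9 of the 10 genes were lower in cKO, with a median log2 ratio of −1.05 where the median of all 12949 genes with at least 50 UMIs in the 2 libraries together was 0.08. Of the 10, 5 lay below −1 (Nox4 −1.88, Itga11 −1.58, Lrrc15 −1.56, Fap −1.26 and Postn −1.21) and 0 above 1, beside 3.59% and 6.06% of all genes. The Nox4 interval ran from −2.10 to −1.67, and that of Postn from −1.37 to −1.05. Fn1 was lower by less (−0.84) and Acta2 likewise (−0.89 [−1.65, −0.22]). Tagln at −0.54 [−1.35, 0.18] and Cthrc1 at −0.04 [−0.29, 0.19] had intervals that reached 0. Adam12 was higher at 0.44 [0.40, 0.48]. Lrrc15 rested on 5 UMIs in cKO, 0 CPM in the female and 5.37 in the male against 8.58 and 5.15 in Ctrl. Both cKO values by sex lay below both Ctrl values for 6 of the genes and above them for 1, Adam12, beside 19.6% and 31% of all genes.

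At 21 dpi, 8 of the 10 were lower in cKO, with a median of −0.86 beside −0.03 over 15318 genes. Below −1 were 4 of the 10 (Lrrc15 −3.26, Nox4 −2.45, Itga11 −2.08 and Fap −1.17) and above 1 was 1, Adam12 at 1.38, beside 6.89% and 7.37% of all genes. Lrrc15 rested on 1 UMI in cKO, with an interval from −8.60 to −0.70. It had fewer than 50 UMIs in the pair of libraries, so the shares of all genes leave it out. Nox4 was again among the lowest ratios, at 63.5 CPM against 348 CPM [−2.58, −2.33]. Postn differed less than at 7 dpi (−0.62 [−0.78, −0.47]), at −0.49 within the females (60.2 against 84.3 CPM) and −0.57 within the males (39.9 against 59.1 CPM). Fn1 stood at −0.88, Cthrc1 at −0.43 and Acta2 at −0.84 [−1.80, 0.00] and Tagln at 0.21 [−0.37, 0.75], the last 2 with intervals that reached past 0. By sex, 7 genes were lower in both cKO mice and 1 higher, beside 33.3% and 27.2% of all genes. Among the 7, Cthrc1 stood at 15.5 CPM in the cKO female against 15.8 in both Ctrl mice. Its log2 ratio was −0.03 within the females and −0.70 within the males. Lrrc15, also among them, had 1 UMI in the cKO female and 0 in the male.

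Under αvβ8 blockade 8 of the 10 genes were lower at 7 dpi. The median was −0.51 beside 0.07 over 14891 genes, and 2 lay below −1, Nox4 at −1.17 [−1.24, −1.11] and Postn at −1.08 [−1.13, −1.02], with 0 above 1, beside 2.5% and 4.83% of all genes. Itga11 stood at −0.82, Lrrc15 at −0.68, Fap at −0.51 and Fn1, Acta2 and Tagln between −0.50 and −0.47. Cthrc1 (0.40 [0.31, 0.50]) and Adam12 (0.59 [0.57, 0.60]) were higher. In both mice of ADWA11, 7 genes were lower and these 2 were higher than in both Ctrl mice, beside 22.7% and 37.1% of all genes.

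At 21 dpi, 9 of the 10 genes were lower in ADWA11, with a median of −0.72 beside −0.01 over 15973 genes. With both libraries at the same mix of sub-clusters (described below) the median was 0.04, and Cthrc1 (0.20), Acta2 (0.43), Lrrc15 (0.69) and Fap (0.10) changed sign. In sub-cluster 4 of ADWA11 the Lrrc15 level of 5.63 CPM [1.53, 14.4] rested on 4 UMIs, and the Acta2 level of 8.44 CPM [3.10, 18.4] on 6. The sign changes of Lrrc15 and Acta2 lean on these counts. Below −1 were Lrrc15 at −1.63 [−2.86, −0.56] and Fap at −1.23 [−1.30, −1.16], 2 of 10, and 0 lay above 1, beside 3.61% and 2.46% of all genes. Lrrc15 had fewer than 50 UMIs in this pair as well, so the shares of all genes leave it out. Acta2 stood at −0.91, Postn at −0.84, Nox4 at −0.83, Fn1 and Tagln at −0.62, Cthrc1 at −0.48 and Itga11 at −0.10. Adam12 stood at 0.36, but its values by sex overlapped, 1623 and 2131 CPM in ADWA11 against 1667 and 1291 CPM in Ctrl. For 8 genes both ADWA11 mice were below both Ctrl mice and for 0 above, beside 26.7% and 25.8% of all genes. The Ctrl library is shared by the cKO and the ADWA11 comparison of each time point, so the 2 sets of ratios are not independent.

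Between the Ctrl libraries, 9 of the 10 genes were lower at 21 dpi than at 7 dpi. The median was −1.28 beside 0.08 over 15580 genes, and 6 lay below −1 (Lrrc15 −2.48, Acta2 −2.47, Postn −2.28, Cthrc1 −2.19, Tagln −1.53 and Fn1 −1.03) and 0 above 1, beside 5.2% and 12.2% of all genes. Both genes of the contractile pair were among these 6. With both libraries at the same mix of sub-clusters (described below) the median was −0.49, and Tagln changed sign to 0.02. Fap (−0.41), Itga11 (−0.18) and Adam12 (−0.63) differed less, and Nox4 was slightly higher (0.21 [0.16, 0.25]) with overlapping values by sex. Both 21 dpi mice were below both 7 dpi mice for 8 genes and above for 0, beside 30.6% and 42.1% of all genes.

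**Figure D3:**
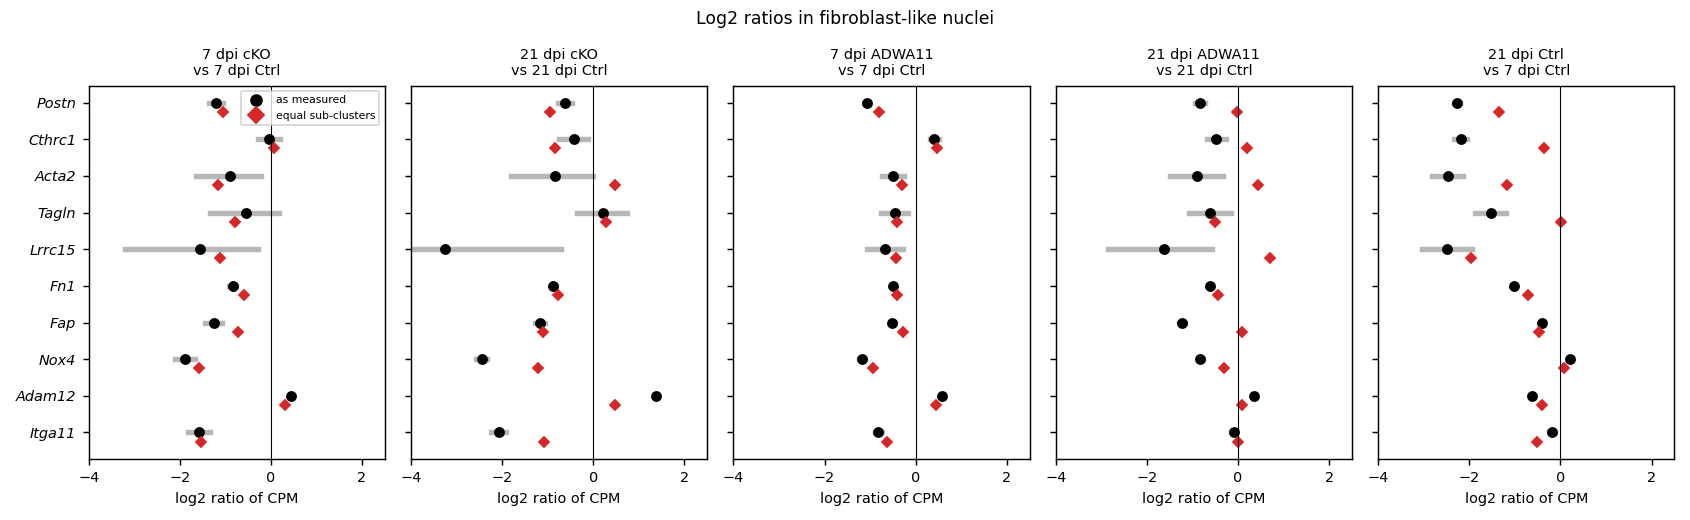
Log2 ratio of CPM in fibroblast nuclei (x axis) for each gene (y axis) in 5 comparisons (panels), with grey bars for 95% exact conditional binomial intervals, a line at 0, and red diamonds for the same ratio with both libraries at the same mix of sub-clusters. Nox4 lies at −1.88 and −2.45 in the cKO panels, Adam12 lies above 0 in all 4 perturbation panels, and the Lrrc15 interval in the 21 dpi cKO panel runs past the left edge to −8.60.

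Fibroblast nuclei were divided into sub-clusters with the 10 genes and the companion lists given below left out (70 genes), so that no sub-cluster was set by them directly. Sub-cluster 2, led by Spock3, Has2 (hyaluronan synthase) and Eln (elastin), held 1008 of the 7 dpi Ctrl nuclei and 73 of those at 21 dpi. Sub-cluster 4, led by Rbpjl, Camk4 and Sox6, held 1446 nuclei of 21 dpi Ctrl, 114 of 21 dpi ADWA11 and 1 of 21 dpi cKO. Sub-cluster 0, led by Slc47a2 and Slc47a1 (cation exporters), held 1945 nuclei in 21 dpi Ctrl and 2291 in ADWA11. Sub-clusters 3 and 5 were arachnoid-like by their markers and sub-cluster 8 was proliferating. Sub-cluster 7, with 321 of its 342 nuclei from 21 dpi cKO, may be that library and not a type. Sub-cluster 1 had a median UMI count of 0.24 of that of its libraries, was led by glial and microglial genes and stayed unnamed. It held 257 fibroblast nuclei of 7 dpi Ctrl (11.9%), 1780 of 21 dpi Ctrl (29.3%) and 145 of 21 dpi ADWA11 (4.75%).

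The mix of libraries differed between sub-clusters, so levels were compared within a library, over sub-clusters with at least 50 of its nuclei. In 7 dpi Ctrl, Fn1 (2070 CPM), Fap (927 CPM), Nox4 (679 CPM), Postn (662 CPM [622, 704]) and Itga11 (397 CPM) were all highest in sub-cluster 4. Fap and Nox4 were highest there in each of the 4 libraries with that sub-cluster, whereas Adam12 was lowest there, at 1089 CPM in 7 dpi Ctrl against 4531 in sub-cluster 3 and 4062 in sub-cluster 5. For Fap in 21 dpi Ctrl the intervals of sub-cluster 4 [395, 420] and sub-cluster 2 [345, 437] overlapped, so their order was not set. Of the 104 sub-cluster 4 nuclei of 7 dpi ADWA11, 87 were assigned to the female and 9 to the male. The values of sub-cluster 4 in that library are thus in effect those of 1 sex. Postn of 21 dpi Ctrl was instead highest in sub-cluster 5, which was led by the basement membrane genes Col4a6 and Lamc3. It stood there at 338 CPM [306, 371] against 226 [193, 263] in sub-cluster 2 and 120 in sub-cluster 4. Cthrc1 was highest in the proliferating sub-cluster 8 of 7 dpi Ctrl, at 127 CPM [103, 154] against 88.9 in sub-cluster 2, and highest in sub-cluster 2 of 7 dpi ADWA11, at 129 CPM against 104. Acta2 stood at 43.5 CPM [30.1, 60.8] in sub-cluster 8 (41.2% of its UMIs in 1 nucleus) and 28.6 [17.5, 44.2] in sub-cluster 1 of 7 dpi Ctrl, with overlapping intervals, and in 7 dpi ADWA11 at 28.5 in sub-cluster 8 and 41.7 in sub-cluster 4, where 1 nucleus held 52.5% of its UMIs. Tagln stood at 24.3 and 27.5 CPM in sub-cluster 8 of 7 dpi Ctrl and ADWA11, but 1 nucleus held 36.8% of the 19 and 47.5% of the 59 UMIs, so no order of sub-clusters is drawn from it. Lrrc15 was at 28.6 CPM in sub-cluster 1 and 14.6 in sub-cluster 4 of 7 dpi Ctrl, from 20 and 22 UMIs.

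**Figure D4:**
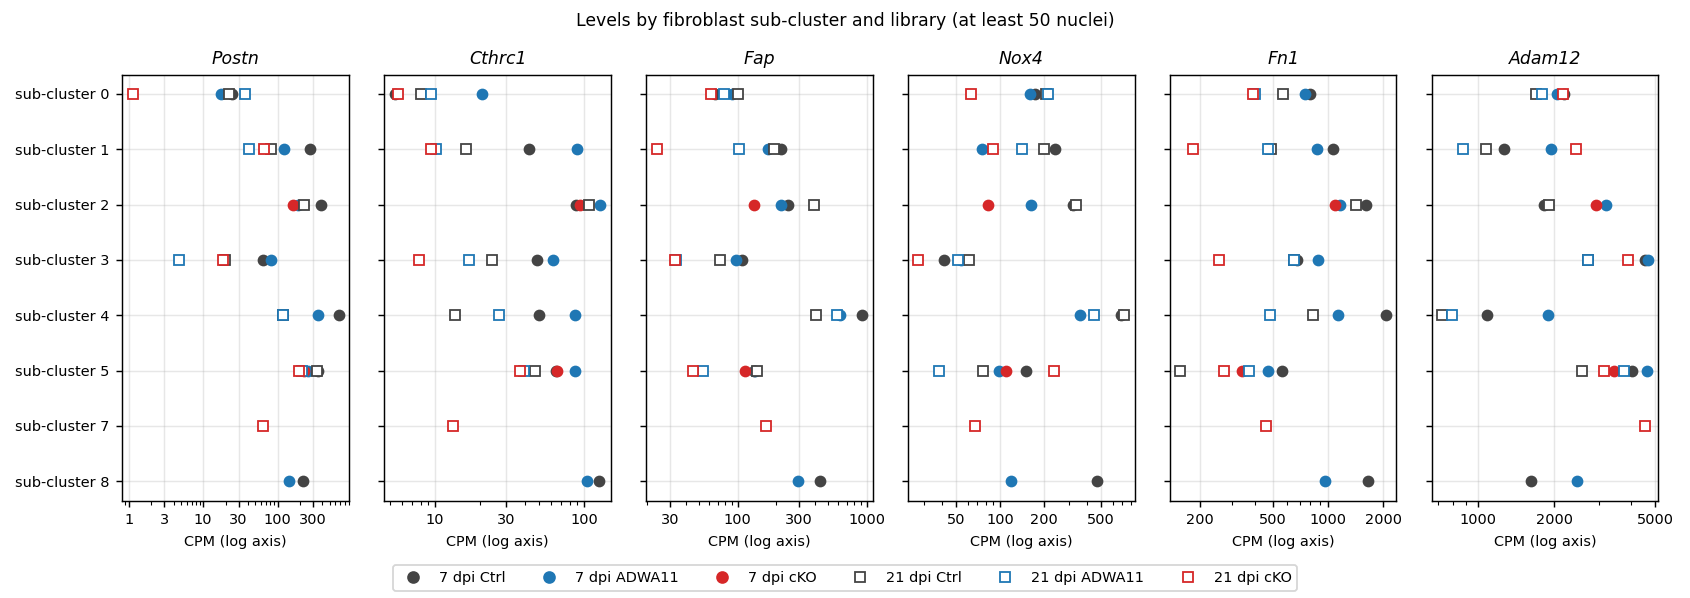
Levels of 6 of the genes (x axis, CPM, log axis) in each fibroblast sub-cluster (y axis), 1 symbol per library with at least 50 nuclei there, filled for 7 dpi and open for 21 dpi, without error bars. Within each library shown in sub-cluster 4, Fap and Nox4 lie farthest right there and Adam12 farthest left, and sub-cluster 7 shows the 21 dpi cKO library alone.

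Sub-cluster makeup moved with several of the ratios. When both libraries of a pair were given the same mix of sub-clusters, over those with at least 50 nuclei in each (an alternative chosen after the data were seen), the median ratio at 7 dpi was −0.92 in cKO over 2 sub-clusters and −0.42 in ADWA11 over 7. At 21 dpi it was −0.85 in cKO over 4 sub-clusters and 0.04 in ADWA11 over 5. The 21 dpi cKO value covered 641 cKO and 4542 Ctrl nuclei, with sub-clusters 4 and 7 not among them. The medians of 21 dpi cKO within sub-clusters 0, 1, 3 and 5 were −0.55, −0.77, −0.97 and 0.29. The 21 dpi ADWA11 ratio of Fap went from −1.23 to 0.10 and the cKO ratio of Nox4 from −2.45 to −1.23. For Ctrl at 21 against 7 dpi the median was −0.49 over 6 sub-clusters in place of −1.28, and Tagln went from −1.53 to 0.02. Within sub-cluster 2 at 7 dpi, Nox4 stood at −1.95 [−2.30, −1.62], Itga11 at −1.77 and Postn at −1.25 in cKO, and Postn at −1.03 and Nox4 at −0.97 in ADWA11. Within sub-cluster 5, the other one with a cKO value at 7 dpi, Nox4 stood at −0.44, Postn at −0.62 and Fn1 at −0.73, and the median was −0.25 over 9 genes beside −0.99 in sub-cluster 2. The 7 dpi ADWA11 medians were above 0 in sub-clusters 3 (0.37 over 8 genes) and 5 (0.08) and below 0 in the other 5. Those of 21 dpi ADWA11 were 0.08, −0.33, −0.27, 0.06 and −0.68 in sub-clusters 0, 1, 3, 4 and 5. Within sub-cluster 4 the Ctrl ratio of 21 against 7 dpi was −2.46 [−2.58, −2.34] for Postn, −1.86 for Cthrc1 and −2.09 for Acta2, and 0.08 for Nox4. The Ctrl medians of 21 against 7 dpi were −0.11, −1.12, −0.02, −0.53, −1.59 and −0.56 in sub-clusters 0, 1, 2, 3, 4 and 5. In sub-cluster 2, intervals lay below 0 for 3 of the 10 genes and above 0 for 2. Within sub-cluster 3, Nox4 and Fap both stood at −1.17 in 21 dpi cKO and Adam12 at 0.51. Sub-cluster 5 differed in sign in 21 dpi cKO, with Nox4 at 1.63 [1.24, 2.03] and Fn1 at 0.80 [0.48, 1.12].

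Mural cells are the smooth muscle cells and pericytes of vessels, but many nuclei of the mural class lay in an unnamed sub-cluster. At 7 dpi it held 65 of the 78 mural nuclei of Ctrl and 56 of the 64 of ADWA11, beside 7 and 3 smooth muscle nuclei. In mural nuclei Acta2 was at 270 CPM [227, 318] in Ctrl, 349 [295, 411] in ADWA11 and 83.1 [38.0, 158] in cKO at 7 dpi, and at 408, 694 [613, 783] and 229 [176, 292] CPM at 21 dpi. Within 21 dpi Ctrl the 25 smooth muscle nuclei held 1383 CPM of it, the 16 pericyte nuclei 15.9 CPM and the 95 nuclei of the unnamed sub-cluster 169 CPM, and 28 of the 36 mural nuclei of 7 dpi cKO were pericytes. Tagln had 77.6 CPM in Ctrl, 84.9 in ADWA11 and 27.7 in cKO at 7 dpi, and the 21 dpi libraries had 83.9, 162 and 71.4 CPM of it. In mural nuclei Adam12 was at 898 CPM in 7 dpi Ctrl, 599 in ADWA11 and 36.9 [10.1, 94.6] in cKO, and 423, 369 and 325 CPM at 21 dpi, with overlapping intervals in Ctrl [370, 482] and ADWA11 [311, 436] at 21 dpi. Within 21 dpi Ctrl the unnamed mural sub-cluster held 599.7 CPM of Adam12 against 63.5 in pericytes and 61.7 in smooth muscle. Fibroblast markers were found in mural nuclei, all 8 in each library but 7 dpi cKO, which had 7 (Lum at 0), and summed to 3376, 3555 and 646 CPM in Ctrl, ADWA11 and cKO at 7 dpi and to 3628, 3521 and 900 CPM at 21 dpi. Their part in the mural values was not tested. Lrrc15 had 1 UMI in all mural nuclei, and 0 of 78 in 7 dpi Ctrl allows up to 3.85% of mural nuclei with a UMI. Mural Cthrc1 of 21 dpi was higher in cKO, at 83.3 CPM in the female and 56.0 in the male, from 11 and 5 UMIs. In Ctrl these values were 4.41 and 5.28 CPM, from 1 UMI each. Over all libraries pericytes held 85.3 CPM of Cthrc1 and the unnamed sub-cluster 6.67. Of these 96 pericytes, 28 came from 7 dpi cKO and 39 from 21 dpi cKO. The pooled level is thus largely that of cKO nuclei and cannot tell makeup from genotype. Pericytes were 39 of the 63 mural nuclei of 21 dpi cKO and 16 of the 136 of Ctrl, a makeup whose part was not tested.

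Osteoblast-like nuclei, of which Sp7, a transcription factor of bone formation, marked 50.8% against 0.996% of other nuclei, carried several of the genes. The cKO libraries held 2 such nuclei each and were not compared. Of the 45 in 7 dpi Ctrl, 37 were assigned to the female and 1 to the male, so the values of that library are in effect those of 1 sex. Fap was at 1467 CPM in 7 dpi Ctrl and 1225 in ADWA11, and at 2575 and 2441 CPM at 21 dpi, above the fibroblast level of the same library in each. Postn stood at 894 CPM [806, 990] and 321 [281, 364] at 7 dpi and at 758 and 603 CPM at 21 dpi. By sex its 21 dpi values overlapped, 1382 CPM in the female and 574 in the male of Ctrl against 527 and 752 CPM in ADWA11. Nox4 was 524 and 54.8 CPM at 7 dpi and 355 and 196 CPM at 21 dpi, with Ctrl above ADWA11 as in fibroblasts. Lrrc15 was 33.7, 31.5, 30.2 and 8.80 CPM in the same order. Cthrc1, at 98.6 and 258 CPM at 7 dpi and 114 and 174 CPM at 21 dpi, was higher in ADWA11 at both times.

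Class sums do not say whether 1 nucleus carries several of the genes, so detection was counted per nucleus after each was thinned to 2000 UMIs, leaving out those below (43 to 1650 fibroblast nuclei per library). At least 3 of the 10 genes were detected in 59.7% of 7 dpi Ctrl fibroblasts, 50.4% in ADWA11 and 27.2% in cKO. At 21 dpi the shares were 36.7%, 24.3% and 13%. At least 5 were detected in 13.1%, 5.37% and 2.11% at 7 dpi and in 2.66% and 0.860% in Ctrl and ADWA11 at 21 dpi. In 21 dpi cKO 0 of 892 nuclei had 5, which allows a share of up to 0.336%. Without thinning, 48.8% of 7 dpi Ctrl nuclei had at least 5. In myeloid nuclei, which should lack most of these genes, at least 3 were detected in 0.374% and 0.197% in 7 dpi Ctrl and ADWA11 and in 0.455% and 0.129% at 21 dpi, at the same 2000 UMIs. In cKO it was 0 of 1838 myeloid nuclei at 7 dpi and 0 of 1993 at 21 dpi, which allows shares of up to 0.163% and 0.151%. Osteoblast-like nuclei had at least 3 in 85.7% and 75.6% in 7 dpi Ctrl and ADWA11, and in 83.2% and 75.0% at 21 dpi. In mural nuclei the share ran from 8.33% in 21 dpi cKO to 42.6% in 7 dpi Ctrl.

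**Figure D5:**
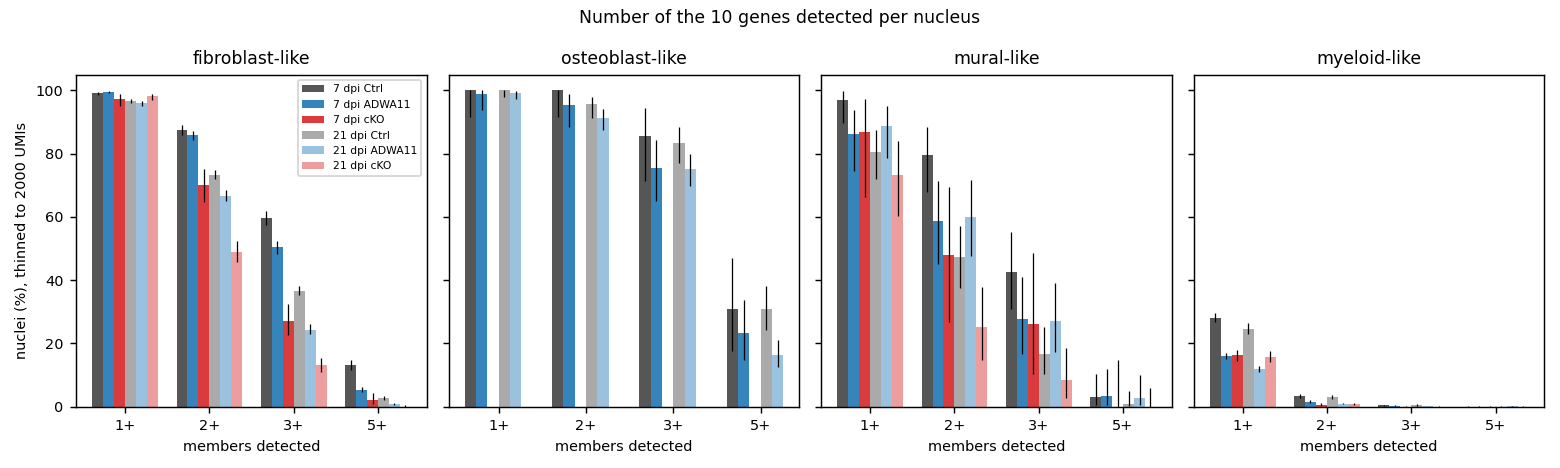
Share of nuclei (y axis, percent) with at least 1, 2, 3 or 5 of the 10 genes detected (x axis) at 2000 UMIs per nucleus, 1 bar per library, in 4 classes (panels), with 95% Clopper-Pearson intervals. Fibroblast shares with at least 3 run from 59.7% in 7 dpi Ctrl to 13% in 21 dpi cKO, and the osteoblast-like panel has no cKO bars because these libraries held 2 such nuclei each.

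The nuclei with many of the genes lay unevenly over the sub-clusters. At least 5 were detected in 36.1% of sub-cluster 4 nuclei, 17.1% of proliferating nuclei and 14.4% of sub-cluster 2 nuclei of 7 dpi Ctrl, and in 5.89% of sub-cluster 4 nuclei of 21 dpi Ctrl. In sub-cluster 2, at least 3 were detected in 67.7% of 7 dpi Ctrl nuclei, 59.8% in ADWA11 and 33.9% in cKO. For pairs of genes, the number of nuclei with both was set against the number given by the separate detection shares within sub-clusters and 5 bins of depth. The median of the observed over this expected number was between 0.992 and 1.06 in the 6 libraries, over 18 to 40 of 45 pairs. At 7 dpi the interval lay above 1 for 0 of 40, 1 of 38 and 0 of 18 pairs in Ctrl, ADWA11 and cKO. At 21 dpi it did so for 3 of 33, 2 of 25 and 0 of 18 pairs, and 1 pair lay below. Over this many pairs a few 95% intervals are expected to miss 1 by counting error alone. Whether the pairs named next exceed that number was not tested. Postn and Fap were found together in 163 nuclei of 21 dpi Ctrl where their separate shares gave 112, a ratio of 1.46 [1.24, 1.70], and the ratio in 21 dpi ADWA11 was 1.59 [1.16, 2.14]. Postn and Nox4 stood at 1.19 and 1.46 in the same libraries. Fap with Nox4 stood at 1.13 in 21 dpi Ctrl and at 1.22 in 7 dpi ADWA11. Fn1 and Itga11 in 21 dpi ADWA11, at 0.855, were the pair below 1. Acta2 and Tagln were too sparse at 2000 UMIs. Without thinning they were detected together 4.2 [2.79, 6.06] times as often as their separate shares give in 7 dpi Ctrl and 4.30 [2.94, 6.07] times in 7 dpi ADWA11. The nuclei with both numbered 28 and 32. Their summed mural markers stood at 189 and 258 CPM, against 108 and 88.1 CPM in fibroblasts without Acta2. The part of mural RNA in this co-detection was not tested.

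Genes around the 10 were described from 3 lists of names. Of 23 TGFβ-responsive and scar matrix genes, 11 lay below −1 in 7 dpi cKO and 15 in 21 dpi cKO, with medians of −0.82 and −1.58, and 0 lay above 1 in either, beside 3.59% and 6.89% of all genes below −1. In ADWA11 5 and 4 of these genes lay below −1 at 7 and 21 dpi, with medians of −0.74 and −0.47, beside 2.5% and 3.61% of all genes, and 0 and 1 lay above 1, beside 4.83% and 2.46%. In 21 against 7 dpi Ctrl 3 of these genes lay below −1, beside 5.2% of all genes, with a median of −0.43. The fibrillar collagen gene Col1a2 stood at −1.54 and −2.66 in cKO, and at −0.61 and −0.47 in ADWA11. The matrix glycoprotein gene Tnc stood at −1.98 and −3.67 in cKO, and the network collagen gene Col8a1 at −1.82 and −3.64. Ltbp2, a latent TGFβ-binding protein family member, was at −1.85 and Ccn2, connective tissue growth factor, at −1.44 in 7 dpi ADWA11.

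Of the contractile apparatus list of 23 genes, 17 to 21 had enough UMIs in a comparison. Its medians were −0.20 in 7 dpi cKO, 0.03 in 21 dpi cKO, −0.19 in 7 dpi ADWA11 and −0.01 in 21 dpi ADWA11, with 2 of 17, 2 of 19, 2 of 21 and 1 of 20 genes below −1, beside 3.59%, 6.89%, 2.5% and 3.61% of all genes. Above 1 was 1 gene in 21 dpi cKO, beside 7.37% of all genes, and 0 in the other 3. Actn1, α-actinin, stood at −1.10 and −1.53 in cKO and at −1.09 in 7 dpi ADWA11. Cald1, caldesmon, was at −0.65 in both 7 dpi comparisons, and Mrtfa, an SRF cofactor, was at 0.21 and 0.26 in cKO. From 7 to 21 dpi in Ctrl the list had a median of −0.42, near that of the matrix list, and 4 of 20 genes lay below −1 beside 5.2% of all genes, with Tpm2, a tropomyosin, at −1.68 and the smooth muscle actin Actg2 at −3.83 [−4.95, −2.86]. The 14 partners of the genes (other substrates, ligands and relatives) had medians between −0.22 and 0.03. Dpp4, the closest relative of Fap, stood at 1.59 in 7 dpi cKO, 1.77 in 7 dpi ADWA11 and 2.36 in 21 dpi against 7 dpi Ctrl, and Igfbp5 at 1.38 in 7 dpi cKO and −0.98 in 21 dpi cKO.

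Over 26 combinations of library and fibroblast sub-cluster with at least 100 nuclei, the genes most like each one in log2 CPM were ranked among 11981 genes. Units of 1 library share depth and preparation, and the correlations describe them only. Nox4 was most like Sertad4 (Pearson's r = 0.935), Adam12 most like Arnt2 (0.921) and Cthrc1 most like Lamb1, the laminin β1 chain (0.912). Postn was most like Asap1 (0.903), Fap like Cdk14 (0.894), Itga11 like the collagen gene Col11a1 (0.874) and Acta2 like Gpsm2 (0.862), with Tpm2 in the third place (0.834). Fn1 was most like Klf8 (0.838), Tagln most like Clspn (0.836) and Lrrc15 most like Itgav, the integrin αv chain (0.815). Lrrc15 had no UMI in several of these units, so its correlation rests in part on values at the floor. Among the 10 genes themselves, Nox4 and Itga11 had r = 0.84 and Postn and Cthrc1 0.702, whereas Adam12 had −0.777 with Nox4 and −0.681 with Itga11.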

How the data were processed

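The authors deposited unnormalised UMI counts per gene and barcode for 6 single-nucleus libraries (10x Genomics 3′ v3.1, mm10). Per the file headers these were made with Cell Ranger 7.2.0, and per the labels with Cell Ranger 7.1.0. Barcodes outside the 2.5th to 97.5th percentile of UMIs or of genes detected, or above the 97.5th of the mitochondrial share, were dropped in each library, which left 61917 of 67360. Doublets were scored against simulated ones (5356 called). Nuclei were clustered with Seurat 5.3.0 and sctransform 0.4.2 in R 4.3.3 (30 components, resolution 0.5, fibroblasts 0.2) with the 10 genes and their companion lists held out. Classes were named where at least 3 markers were raised, and clusters with over 50% called doublets were dropped. The rules for ties between marker lists were set after the clusters were seen. Of 61455 kept barcode sequences, 459 occurred in more than 1 library.

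For each class in a library, the UMIs of a gene were added up and divided by the non-mitochondrial UMIs of the same nuclei (CPM). Genes with at least 50 UMIs in the pair of libraries formed the background, and a log2 ratio past 1 in size was counted. A count of 0 was given a floor of 3 counts. Each group was 1 library, so no test was made. The intervals were run on simulated independent Poisson counts, the setting they are built for. That run left out the clumping of UMIs within single nuclei, so it does not show that the intervals hold for these data. Depth ran from 64798965 to 140310354 UMIs per library. Alternatives were TMM scaling (edgeR 4.0.16), log-normalised clustering, other treatment of doublets, a minimum of 1000 UMIs, left-out top nuclei or sub-clusters, per-nucleus means, each sex alone, and, chosen after the data were seen, an equal mix of sub-clusters. Named companion genes were the 2 with most UMIs and the 2 with the largest ratio of each list. The 10 genes and the lists were chosen with earlier results of these data known. The study's own cell annotation was not used here.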

Additional observations from a re-analysis of the deposited data

Results flagged for a closer look

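Several genes had log2 ratios of opposite sign in 2 classes or at 2 times, with intervals (counting error only) on opposite sides of 0. With 1 library per group, none of these differences was tested.

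Cthrc1 in fibroblasts stood at 0.40 in ADWA11 against Ctrl at 7 dpi and at −0.48 at 21 dpi. The 21 dpi value was 0.20 with an equal mix of sub-clusters and 0.29 with osteoblast-like nuclei added, so the difference in sign did not hold under either. In osteoblast-like nuclei of 21 dpi it was at 0.61, opposite to fibroblasts.

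Adam12 differed in sign between fibroblasts and mural nuclei in cKO against Ctrl, at 0.44 and −4.60 at 7 dpi and at 1.38 and −0.38 at 21 dpi. In 7 dpi ADWA11 it stood at 0.59 in fibroblasts, 0.45 in osteoblast-like nuclei and −0.58 in mural nuclei, and in 21 dpi ADWA11 at 0.36 in fibroblasts and −0.36 in osteoblast-like nuclei. For 21 dpi against 7 dpi Ctrl the values were −0.63 in fibroblasts, −1.09 in mural nuclei and 0.28 in osteoblast-like nuclei. Summed fibroblast markers in mural nuclei went with the mural order at 7 dpi in cKO (3376 CPM in Ctrl and 646 CPM in cKO) but not in ADWA11 (3555 CPM), and their part was not tested. The mural value of 7 dpi cKO rested on 4 UMIs, and pericytes were 28 of its 36 mural nuclei against 6 of 78 in Ctrl, a makeup whose part was not tested either. Within the unnamed mural sub-cluster, Adam12 stood at 85.4 CPM in 7 dpi cKO, from 3 UMIs, against 1055 CPM in Ctrl, and at 21 dpi the order was the other way, 909 CPM in cKO against 599.7 CPM. By sex, the mural value in 21 dpi cKO did not hold in both mice, with 546 CPM in the female and 101 CPM in the male, the latter from 9 UMIs, against 459 and 401 CPM in Ctrl.

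Acta2 in ADWA11 against Ctrl was at −0.50 in fibroblasts and 0.37 in mural nuclei at 7 dpi. The mural sign at 7 dpi differed between the sexes, with 149 CPM in the female and 460 in the male of Ctrl against 383 and 228 CPM in ADWA11. At 21 dpi it was at −0.91 in fibroblasts, 0.77 in mural nuclei and −2.37 in osteoblast-like nuclei. With an equal mix of sub-clusters the fibroblast value was 0.43, which leaned on 6 UMIs in sub-cluster 4 of ADWA11. Osteoblast-like Acta2 was at 11 CPM in the female, from 3 UMIs, and 58.5 in the male of Ctrl. In ADWA11 it was at 1.35 and 14.9 CPM, values that overlap those of Ctrl. Tagln was at −0.62 in fibroblasts and 0.95 in mural nuclei. Smooth muscle nuclei were 31 of the 81 mural nuclei of 21 dpi ADWA11 and 25 of the 136 of Ctrl, and the part of this makeup in the mural values was not tested. For 21 dpi against 7 dpi Ctrl, Acta2 stood at −2.47 in fibroblasts, 0.60 in mural nuclei and 2.57 in osteoblast-like nuclei, the last from 3 UMIs at 7 dpi and carried by the same 21 dpi Ctrl male. By sex, mural Acta2 was at 464 CPM in the female and 312 in the male of 21 dpi Ctrl, above 149 CPM in the 7 dpi female and below 460 CPM in the 7 dpi male.

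In that comparison Fap stood at −0.41 in fibroblasts, −0.37 in mural nuclei and 0.81 in osteoblast-like nuclei. Nox4 stood at 0.21 in fibroblasts, −2.92 in mural nuclei and −0.56 in osteoblast-like nuclei. The mural 7 dpi level was 302 CPM in the male, from 59 UMIs, and 35.6 CPM in the female, from 6, against 10.6 and 17.7 CPM at 21 dpi. Osteoblast-like Nox4 was at 565 CPM [487, 651] in the 7 dpi female and 550 [465, 645] in the 21 dpi female, with overlapping intervals. The 21 dpi male was at 346 CPM, and the 7 dpi male had 1 such nucleus.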

How the results depend on the processing

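No paired analysis was possible because each group had 1 library, and ratios within the female and within the male are values with no test. Counting error and the absence of replicate libraries limit every ratio. Over the alternatives, 434 values of single genes moved by less than their counting interval, 155 moved by more and 10 reversed. These totals pool unlike settings. Without called doublets, and with a minimum of 1000 UMIs, 50 values moved by less and 0 by more. With an equal mix of sub-clusters 14 moved by less, 30 by more and 5 reversed. The same counts were 23, 24 and 3 in the female alone, 22, 27 and 1 in the male alone, and 26, 24 and 0 as per-nucleus means. The cause was not tested for any of these moves.

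The median of the 10 log2 ratios was −1.50 in 7 dpi cKO without the 5 nuclei with most UMIs of each gene. In 21 dpi cKO it was −1.15 as a mean of per-nucleus CPM, −1.21 with osteoblast-like nuclei added and −1.27 in the female alone. In 21 dpi ADWA11 it was −0.42 with osteoblast-like nuclei added and, with an equal mix of sub-clusters, reversed to 0.037. For 21 against 7 dpi Ctrl it was −0.49 with an equal mix. The median log2 ratio of shares of nuclei detected was −0.46 in 21 dpi ADWA11 when thinned and 0.029 unthinned. Single genes reversed in 21 dpi ADWA11 with an equal mix (Cthrc1 0.20, Acta2 0.43, Lrrc15 0.69, Fap 0.10), with osteoblast-like nuclei added (Cthrc1 0.29) and in the female alone (Adam12 −0.039, Itga11 0.23). The equal-mix values of Acta2 and Lrrc15 leaned on 6 and 4 UMIs in sub-cluster 4 of ADWA11. Lrrc15 was at 0.062 in the 7 dpi cKO male alone. For 21 against 7 dpi Ctrl, Tagln was at 0.018 with an equal mix and Nox4 at −0.0079 in the female alone. Without any called doublet, osteoblast-like Postn was at 1047 CPM in 7 dpi Ctrl and 890 in 21 dpi Ctrl, and Fap at 1632, 2697 and 2521 CPM in 7 dpi Ctrl, 21 dpi Ctrl and 21 dpi ADWA11.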
